A study of Mus musculus with 24 samples.

Results

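Ribosome footprints of N2a cells, a mouse neuroblastoma line, were compared after 2 h in 250 nM Torin1 or in the vehicle DMSO. The cells were the ctrl line of a study of the translation factor eIF4E3. The comparison takes 5 of the 24 samples of the series, namely ctrl DMSO replicates 1 and 3 and ctrl Torin1 replicates 1 to 3. The study discarded a ctrl DMSO library of the ribo-seq as an outlier, so the DMSO group is what that choice left. Replicate 2 of that group was not used here. Of the 10779 transcripts in the table, 10693 passed 1 CPM (counts scaled to the size of the library) in all libraries of DMSO or in all libraries of Torin1 and were tested, and the other 86 were left out. The ctrl cells, whose genotype the labels give as WT, had been transfected with the empty pSpCas9(BB)-Puro vector and selected with puromycin, in a pair of rounds, as had the eIF4E3 KO cells with guides against Eif4e3. All of them were grown in pyruvate-free DMEM with serum. The methods describe surviving cells and name no clone, and each replicate is another passage of the same line. The p-values therefore measure the spread between passages of 1 line. RNA-seq of the same ctrl conditions (3 libraries each) and ribo-seq of KO cells in DMSO and Torin1 (3 libraries each) are used below only to place the ctrl footprints.

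In ribo-seq, cells are lysed with ribosomes held in place, here by cycloheximide, RNA outside ribosomes is digested, here with RNase I, and the protected fragments are sequenced. The number of footprints on a coding sequence (CDS) depends on how much of the mRNA there is and on how many ribosomes it carries. Torin1 blocks the active site of the kinase mTOR and so both of its complexes, mTORC1 and mTORC2. mTORC1 promotes translation by phosphorylating the 4E-BPs, which otherwise hold the cap-binding protein eIF4E away from eIF4G, and the S6 kinases. The mRNAs known to depend on it most carry a 5′ terminal oligopyrimidine (TOP) motif, a C at the cap followed by a run of pyrimidines, and encode ribosomal proteins and translation factors. When mTORC1 is off, the protein LARP1 binds the cap and this motif. mTORC2 activates AKT, which keeps the FoxO transcription factors out of the nucleus.

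To show what a TOP start looks like, the first 20 bases of the RefSeq transcript (GRCm38.p6) are printed for 7 mRNAs of the TOP lists, with the C at the start and the pyrimidines that follow it in capitals. These are Rps6 at chr4:86857348-86857367 (minus strand), Rps18 at chr17:33955646-33955665 (minus), Rplp2 at chr7:141447651-141447670 (plus), Eif3f at chr7:108934415-108934434 (plus), Rack1 at chr11:48800360-48800379 (plus), Fau at chr19:6057947-6057966 (plus) and Rpl15 at chr14:18270967-18270986 (minus).
Rps6: CTCTTTTTCgtgacgcctcc
Rps18: CTCTCTTCCacaggaggcct
Rplp2: CTTTCgccgccggacgccgc
Eif3f: CTCTCTTTCTCggcaagatg
Rack1: CTTTTTCTCCacagggtcgt
Fau: CTTCCTCTTTCTTgactcca
Rpl15: CTTCCTTTCCTCTggcggca
For contrast, a RefSeq start that begins with a purine is printed for 3 of the mRNAs whose footprints rose most. The RefSeq start of Rasgef1a, another of them, begins with a T. The 3 are Egr2 at chr10:67535499-67535518 (plus), Crebrf at chr17:26715650-26715669 (plus) and Il6 at chr5:30013114-30013133 (plus).
Egr2: agcagtcgccagggcccgcg
Crebrf: gagtcacgcgatttccggga
Il6: aaatatgagactggggatgt
Where a gene had more than 1 RefSeq start, one with the motif was taken if there was any. The transcripts whose footprints were counted are those of GENCODE. There Rps6, Rps18, Rplp2, Fau and Rpl15 have no TOP start, and Egr2 begins with a T. Of the 96 transcripts in the TOP lists, 69 had a RefSeq start. For 17 of these (24.64%) a RefSeq start began with a C and at least 4 further pyrimidines. Among all 8536 tested genes with a RefSeq start, 252 (2.952%) had one like this. Among the 477 of them called higher, 13 (2.725%) had one, near the share over all, so lacking the motif is not particular to the increases. An annotated start can lie some bases from the one a cell uses, so the missing motif in the others shows only that these letters were not at the annotated position.

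The libraries differed in depth. DMSO replicate 1 held 4529186 footprints and DMSO replicate 3 held 669392, and the Torin1 libraries held 1289263, 2015619 and 1655359. In DMSO replicate 3 the median tested transcript had 19 footprints and 3318 transcripts had fewer than 10. The 10 largest transcripts held 4.18% to 5.79% of a library. Within a condition, r of log2(CPM + 1) was 0.955 to 0.979, with the pair of DMSO libraries at 0.955. Between a DMSO and a Torin1 library it was 0.921 to 0.947. Of the markers of noradrenergic neuroblastoma, 14 were tested, and Phox2a, Hand2, Dbh, Chga and Chgb had footprints in every library, whereas tyrosine hydroxylase (Th) had 0 in DMSO replicate 3 and at most 13 in any library. No marker of macrophages and leukocytes, of astrocytes and oligodendrocytes or of epithelium was in the table, and of those of fibroblasts only Pdgfra was, with at most 18 footprints. CPM here are scaled by TMM, which sets the level at which most transcripts stay the same. They are shares of a library, so a fall in translation common to all mRNAs cannot be seen in them.

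The mRNAs of the TOP lists lost most of their share of the ribosomes. They took 12.3% and 11.1% of all footprints in the DMSO libraries and 3.9%, 3.5% and 3.42% in the Torin1 libraries, without overlap. All 96 of them fell in edgeR's quasi-likelihood test at an adjusted p under 0.05, while 9.93% of all tested transcripts fell. That count was 32 of 32 for proteins of the small ribosomal subunit, 47 of 47 for the large subunit and 17 of 17 for the other TOP mRNAs with no scaling, in DESeq2, with scaling set without the TOP lists and without each library in turn. The median change (log2FC, Torin1 minus DMSO) was -1.87, -2.04 and -1.79 for these 3 lists, beside 0.017 over all tested transcripts. Of the 100 transcripts with the smallest p, 68 were TOP mRNAs. Many ribosomal protein genes have processed pseudogenes close to them in sequence, so reads of the shortest ones may be split, and their levels are uncertain to that extent.

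**Figure D1:**
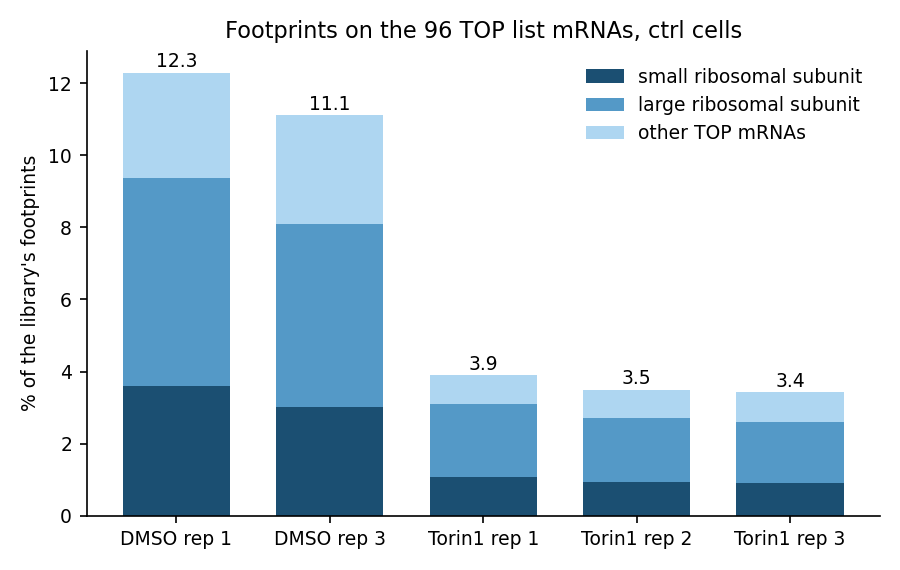
Share of each ctrl ribo-seq library's footprints (y axis, percent) that lay on the mRNAs of the 3 TOP lists, stacked by list, in 2 DMSO and 3 Torin1 libraries (x axis). The DMSO libraries stand at 12.3% and 11.1% and the Torin1 libraries at 3.9%, 3.5% and 3.42%.

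Elongation factors lost the most. Eef2 (chromosome 10, 81176631 to 81182498, plus strand, 14 exons, CDS of 2577 nt) encodes eEF2, the GTPase that moves the ribosome along by 1 codon. It had 3092 and 3862 CPM in DMSO and 322, 266 and 277 CPM with Torin1. Both DMSO libraries lay far above every Torin1 library (log2FC -3.59 ± 0.15, adjusted p = 2.79e-11), and 42.9% of tested transcripts had groups without overlap in one direction or the other. Eef1a1 (chromosome 9, 78478449 to 78481724, minus strand) encodes eEF1A, which brings aminoacyl-tRNA to the ribosome and had the most footprints of the TOP lists, with 11300 and 9624 CPM in DMSO and 941, 909.7 and 862 CPM with Torin1. Its groups did not overlap either (log2FC -3.53 ± 0.14, adjusted p = 1.69e-11). The subunits of the partner complex that recharges eEF1A with GTP fell less. Eef1b2 changed by -2.27, Eef1g by -2.08 and Eef1d by -1.01 on the log2 scale, each with an adjusted p of at most 4.98e-05. Pabpc1, the poly(A)-binding protein, had 353 and 512 CPM in DMSO and 62, 57.8 and 64.7 CPM with Torin1 (log2FC -2.79 ± 0.17, adjusted p = 1.66e-09). Tpt1, the translationally controlled tumour protein, had 804 and 568 CPM in DMSO and 188, 168 and 141 CPM with Torin1 (log2FC -2.07 ± 0.17, adjusted p = 4.12e-08).

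Among the ribosomal proteins the decrease ranged widely. Rpl27a, in the large subunit, had 1281 and 1023 CPM in DMSO and 145, 121 and 118 CPM with Torin1, and no Torin1 library reached a DMSO library (log2FC -3.18 ± 0.15, adjusted p = 1.6e-10). Rps2, a protein of the small subunit, had 2165 and 1590 CPM in DMSO and 244, 237 and 255 CPM with Torin1 (log2FC -2.94 ± 0.15, adjusted p = 3.01e-10). Of the proteins of the large subunit's stalk, which binds the elongation factors, Rplp2 changed by -2.84 and Rplp0 by -2.45. Rps6, the ribosomal protein that S6 kinases phosphorylate, stood nearer the middle of the lists with 1315 and 1200 CPM in DMSO and 402, 357 and 376 CPM with Torin1 (log2FC -1.74 ± 0.14, adjusted p = 2.76e-08). At the small end, Rpl38 changed by -0.82 ± 0.15 and Rpl21 by -0.95 ± 0.14. Outside the ribosome, the range of the TOP lists ended with Eif3e, a subunit of eIF3, at -0.74 ± 0.15 and with Naca, which meets nascent chains at the ribosome, at -0.86 ± 0.13. The smallest decrease in the TOP lists was thus 0.74 and the largest 3.59 on the log2 scale.

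Over all mRNAs, the fall was not limited to the TOP lists. Of the 1062 transcripts that fell, 966 were in none of them. Another 608 rose (5.69% of those tested), so that 15.6% were called in all. The counts of each list below are to be read beside these shares, 9.93% lower and 5.69% higher. The number called depended on the libraries. Leaving out a DMSO library leaves the DMSO group without a replicate, so the spread in that fit comes from the Torin1 libraries alone. Counts from such fits, here and elsewhere in the text, carry that limit. Without DMSO replicate 1 there were 558 lower and 167 higher, without DMSO replicate 3 there were 1336 and 955, without Torin1 replicate 2 there were 649 and 222, and without Torin1 replicate 3 there were 626 and 219. With no scaling beyond library size, which moves the median change of all transcripts to 0.23, the split turned to 684 lower and 1691 higher, so directions below are relative to the bulk of mRNAs.

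**Figure D2:**
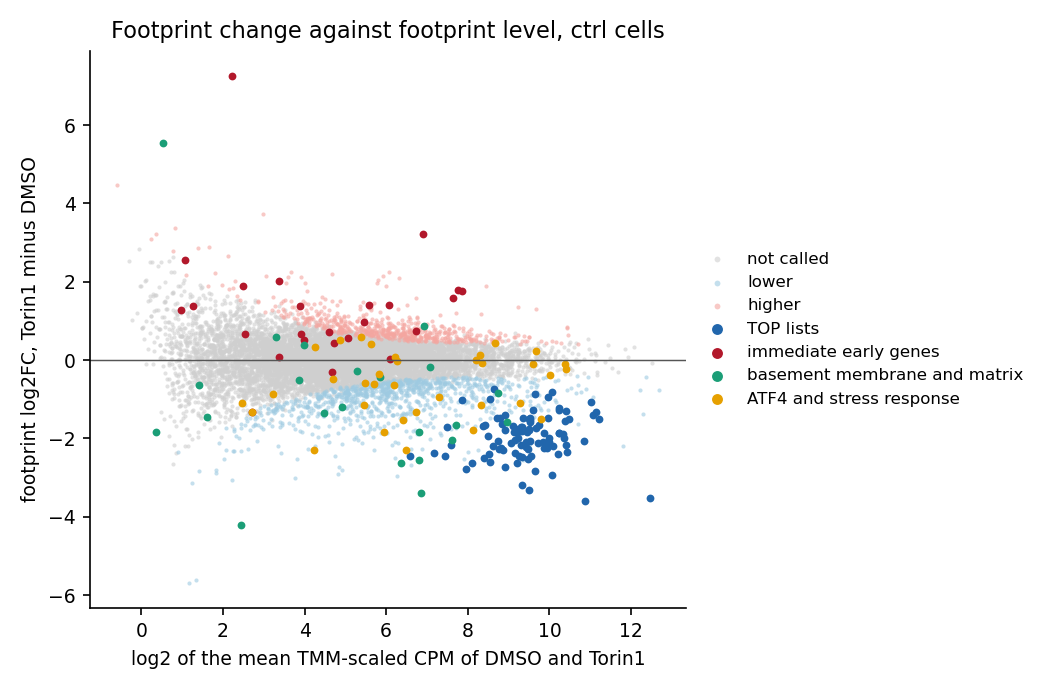
Change of footprints in ctrl cells (y axis, log2FC, Torin1 minus DMSO) against mean footprint level for the tested transcripts, each a point. The x axis is log2 of the average of the DMSO mean and the Torin1 mean CPM. The TOP lists, immediate early genes, matrix genes and ATF4 list are in colour. All 96 TOP mRNAs lie at -0.74 or below and most immediate early genes lie above 0.

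The largest decreases outside the TOP lists were those of Hspg2, Papln, Igdcc4 and Slc25a30. Hspg2 (chromosome 4, 137468803 to 137570629, plus strand, 97 exons, CDS of 13152 nt) encodes perlecan, a proteoglycan of the basement membrane. It had 200.3 and 219 CPM in DMSO and 23.3, 18.6 and 17.8 CPM with Torin1. The groups were far apart (log2FC -3.40 ± 0.18, adjusted p = 3.46e-10). Papln, which encodes the matrix protein papilin, had 26 and 9 footprints in DMSO and 0, 0 and 2 with Torin1. Scaled for depth, its pooled counts were higher in DMSO by a ratio of 19.4 (exact 95% interval 4.98 to 166, counting error only). Igdcc4, which encodes a membrane protein of the immunoglobulin superfamily, had 23 and 7 footprints in DMSO and 1, 1 and 2 with Torin1, a ratio of 8.3 (2.93 to 32.4). Slc25a30, a mitochondrial carrier, had 22.5 and 26.1 CPM in DMSO and 2.92, 2.33 and 3.44 CPM with Torin1 (log2FC -3.01 ± 0.38, adjusted p = 1.31e-05). The rule that named these 4 genes took only transcripts whose groups do not overlap, so their separation adds no support. The same holds for Eef2, Eef1a1 and Rpl27a above.

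A list of 46 genes of the basement membrane and matrix was drawn up after these values had been seen and is a description only. Of its 22 tested members, 11 fell and 2 rose, the same number of decreases in each fit without 1 library. The median was -1.27. Agrn, the proteoglycan agrin, had 171 and 210.4 CPM in DMSO and 37.9, 32.2 and 26.3 CPM with Torin1 (log2FC -2.55 ± 0.18, adjusted p = 1.03e-08). The chains of collagen IV, the network-forming collagen of basement membranes, fell together. Col4a2 had 269 and 359 CPM in DMSO and 64.2, 73.2 and 86.5 CPM with Torin1 and changed by -2.04, and Col4a1 had 133 and 223 CPM in DMSO and 36.5, 47.6 and 55.5 CPM with Torin1 and changed by -1.84. Ltbp4, which binds latent TGF-beta, changed by -2.62. The fibulins Fbln1 and Fbln2 changed by -1.57 and -1.66, and the laminin chains Lamc1 and Lama5 by -0.84 and -1.34. Lama4, another laminin chain, rose, with 75.4 and 104 CPM in DMSO and 123, 164 and 176 CPM with Torin1 (log2FC 0.87 ± 0.19, adjusted p = 0.00447), and was not called without DMSO replicate 1, when no member of the list rose. Thbs1, thrombospondin 1, had 0 and 0 footprints in DMSO and 4, 5 and 6 with Torin1, at least 1.03-fold higher with Torin1 against a floor of 3 counts in each DMSO library.

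The translocon and the ER membrane complex (EMC) bring proteins into the endoplasmic reticulum (ER), where they are glycosylated. Of 49 mRNAs for this machinery, a list also drawn up after the values were seen, 19 fell and 1 rose (median -0.32). There were 11 decreases without DMSO replicate 1 and 12 without Torin1 replicate 3. Mogs, the glucosidase that trims the first sugar of N-glycans, had 148 and 126 CPM in DMSO and 19, 14.9 and 20.6 CPM with Torin1 (log2FC -2.95 ± 0.20, adjusted p = 3.35e-09). Ncln and Nomo1, partners at the translocon, changed by -2.26 and -1.61. Sec61a1, the channel itself, had 542 and 475 CPM in DMSO and 255, 198 and 219 CPM with Torin1 (log2FC -1.20 ± 0.15, adjusted p = 1.17e-05). Of 21 ER chaperones and folding enzymes, 8 fell and 1 rose (median -0.26), and 6 to 8 fell in the fits without 1 library. P4hb, a protein disulfide isomerase, had 1175 and 1109 CPM in DMSO and 450.1, 420.1 and 393 CPM with Torin1 (log2FC -1.44 ± 0.13, adjusted p = 3.08e-07). Ppib, a prolyl isomerase, changed by -1.49 and Txndc5, a further disulfide isomerase, by -1.71. Dnajb9, a co-chaperone of BiP, went the other way with 41.1 and 53.8 CPM in DMSO and 64.9, 93.3 and 95 CPM with Torin1 (log2FC 0.93 ± 0.21, adjusted p = 0.00498). That call was lost without DMSO replicate 1 and without Torin1 replicate 3 (adjusted p 0.000375 to 0.219 over the alternatives).

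Of 43 mRNAs of the lysosome and its proton pump, the V-ATPase, 12 fell and 2 rose (median -0.21), beside 9.93% and 5.69% of all tested transcripts, but the median was 0.001 with no scaling, with 7 in each direction. The count of decreases was 2 without DMSO replicate 1, 7 without Torin1 replicate 2 and 6 without Torin1 replicate 3. Naglu, an enzyme of heparan sulfate breakdown, had 90.8 and 91.3 CPM in DMSO and 32.1, 31.7 and 37.2 CPM with Torin1 (log2FC -1.43 ± 0.18, adjusted p = 1.5e-05). Ctsd, the protease cathepsin D, changed by -0.64. Mcoln1, a lysosomal calcium channel, changed by -0.91 and Hexa, the alpha subunit of hexosaminidase, by -0.91. Both of these calls were lost without DMSO replicate 1. The 2 that rose were subunits of the V1 sector of the proton pump. Atp6v1e1 had 228 and 230 CPM in DMSO and 328, 340.4 and 316 CPM with Torin1 (log2FC 0.52 ± 0.14, adjusted p = 0.0186) and Atp6v1h had 198 and 222 CPM in DMSO and 274, 276 and 307 CPM with Torin1 (log2FC 0.46 ± 0.15, adjusted p = 0.0401). Neither was called without DMSO replicate 1, Torin1 replicate 2 or Torin1 replicate 3, and Atp6v1h was also lost without Torin1 replicate 1 and in DESeq2.

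Tubulins, the subunits of microtubules, were also listed after the values were seen. Of 16 tested, 10 fell and 0 rose in edgeR (0 also at an unadjusted p under 0.05), with a median of -0.75 and 8 to 10 decreases in the fits without 1 library. Tubb5 had 2813 and 2802 CPM in DMSO and 1376, 1417 and 1557 CPM with Torin1 (log2FC -0.95 ± 0.13, adjusted p = 4.05e-05). Tubb2b changed by -1.40, and Tubb3, the neuronal beta-tubulin, had 1195 and 1244 CPM in DMSO and 570.5, 478 and 512 CPM with Torin1 (log2FC -1.23 ± 0.14, adjusted p = 2.75e-06). Tubulin genes are near copies of each other, so footprints can be assigned to the wrong member and single values are uncertain.

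Footprints on nuclear-encoded mitochondrial mRNAs were shifted down by a small amount. Of 37 for complex I of the respiratory chain, 17 fell and 1 rose (median -0.43). The number that fell was 6 without DMSO replicate 1, 8 without Torin1 replicate 2 and 7 without Torin1 replicate 3, and 10 with no scaling. For complexes III and IV and ATP synthase, 17 of 35 fell and 0 rose (2 at an unadjusted p under 0.05, median -0.42), with 8 decreases without DMSO replicate 1, Torin1 replicate 2 or Torin1 replicate 3, 27 without DMSO replicate 3 and 7 with no scaling, where 2 rose. Of 77 mRNAs of the mitochondrial ribosome, 24 fell (median -0.40), falling to 7 without DMSO replicate 1, 12 without Torin1 replicate 2 10 without Torin1 replicate 3, 12 in DESeq2 and 13 with no scaling. The medians of all 3 lists kept their sign in the fits without 1 library. In RNA-seq the mRNAs of these lists had median changes of -0.35, -0.31 and -0.29, in the same order. RNA-seq called 0, 0 and 1 of them lower, and 28, 23 and 44 were lower at an unadjusted p under 0.05 (edgeR).

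Within these complexes, the largest change was that of Atp5g2, which encodes a copy of the c subunit of ATP synthase. It had 536 and 312 CPM in DMSO and 99.9, 83.5 and 75.6 CPM with Torin1 (log2FC -2.34 ± 0.19, adjusted p = 5.64e-08). Its paralog Atp5g1 changed by -1.03. Ndufb5, an accessory subunit of complex I, had 256 and 165 CPM in DMSO and 91.2, 79.7 and 75 CPM with Torin1 (log2FC -1.42 ± 0.18, adjusted p = 1.17e-05). Ndufa6 changed by -1.29 and Ndufb11 by -1.01. Ndufs1, the large iron-sulfur subunit of complex I, was the one that rose, with 358 and 339 CPM in DMSO and 499, 563 and 505 CPM with Torin1 (log2FC 0.58 ± 0.14, adjusted p = 0.00909), a call lost without Torin1 replicate 2. Mrpl38, in the large subunit of the mitochondrial ribosome, had 229.5 and 199 CPM in DMSO and 119, 94.7 and 95.6 CPM with Torin1 (log2FC -1.08 ± 0.16, adjusted p = 6.27e-05).

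In glycolysis, 6 of 17 transcripts fell and 0 rose (0 also unadjusted, median -0.25), with 3 decreases without Torin1 replicate 3 and 3 with no scaling. Gapdh had 1688 and 1693 CPM in DMSO and 754, 630.4 and 654 CPM with Torin1 (log2FC -1.32 ± 0.14, adjusted p = 1.11e-06). Aldoa, the aldolase, had 1511 and 1514 CPM in DMSO and 726, 715 and 783 CPM with Torin1 (log2FC -1.03 ± 0.13, adjusted p = 1.61e-05), and Gpi1, the phosphoglucose isomerase, changed by -1.11. Of 33 proteasome mRNAs, 4 fell (Psma7, Psmd8, Psmd11 and Psmb6, by 0.48 to 0.68 on the log2 scale) and 0 rose, where 8 were lower and 0 higher at an unadjusted p under 0.05. That count of decreases is near the share over all tested transcripts, 9.93%. The proteasome median was -0.08, and 0.13 with no scaling, where 1 fell and 2 rose. Without DMSO replicate 1 or Torin1 replicate 3 no proteasome mRNA was called lower, without Torin1 replicate 2 there were 2, and without DMSO replicate 3 there were 9.

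The initiation machinery outside the TOP lists did not move as one. Of 35 transcripts of initiation factors, 7 fell and 3 rose, with a median of -0.06 that became 0.16 with no scaling, where 6 fell and 9 rose. No increase was called without DMSO replicate 1, and 1 was without any 1 of the Torin1 libraries and in DESeq2. Eif3i, a subunit of eIF3, had 397 and 308 CPM in DMSO and 115, 101 and 116 CPM with Torin1 (log2FC -1.69 ± 0.15, adjusted p = 1.89e-07). Eif3l and Eif3k, also in eIF3, changed by -1.06 and -1.11. Eif4a2, a helicase of the eIF4F complex, had 158 and 186 CPM in DMSO and 80.2, 70.4 and 65.3 CPM with Torin1 (log2FC -1.24 ± 0.16, adjusted p = 2.07e-05). Eif1a, which takes part in scanning, rose with 96.6 and 121 CPM in DMSO and 181, 166 and 187 CPM with Torin1 (log2FC 0.76 ± 0.16, adjusted p = 0.00311), though not without DMSO replicate 1. Eif4g3, a scaffold of eIF4F, had 108 and 132 CPM in DMSO and 165, 162 and 166 CPM with Torin1 (log2FC 0.49 ± 0.16, adjusted p = 0.0375), and Eif1b had 27.1 and 17.9 CPM in DMSO and 43, 43.4 and 36.1 CPM with Torin1 (log2FC 0.71 ± 0.23, adjusted p = 0.0451). Both lost the call without DMSO replicate 1, without any 1 of the Torin1 libraries and in DESeq2, where the adjusted p ran up to 0.412 for Eif4g3 and 0.168 for Eif1b over the alternatives. Eif4e3, the gene targeted in the KO cells, had 22.2 and 17.9 CPM in DMSO and 21.2, 11.7 and 17.8 CPM with Torin1, so that the groups overlapped (log2FC -0.36 ± 0.30, adjusted p = 0.448).

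Of 36 mRNAs of the mTOR pathway itself, 2 fell and 6 rose (median 0.15), beside 9.93% and 5.69% of all tested transcripts. The number that rose was 2 without Torin1 replicate 2 or Torin1 replicate 3, 4 without DMSO replicate 1, 3 in DESeq2 and 11 with no scaling. Eif4ebp1, which encodes the translation repressor 4E-BP1, had 276 and 239.8 CPM in DMSO and 129, 104 and 102 CPM with Torin1 (log2FC -1.23 ± 0.15, adjusted p = 1.16e-05). Lamtor4, part of the Ragulator complex that anchors mTORC1 at the lysosome, had 85 and 86.4 CPM in DMSO and 57.6, 44.3 and 45.8 CPM with Torin1 (log2FC -0.81 ± 0.18, adjusted p = 0.00483), a call lost without DMSO replicate 1. Folliculin and its partner, which act on the Rag GTPases, both rose. Fnip1 had 55.8 and 47.3 CPM in DMSO and 146, 185 and 151 CPM with Torin1 (log2FC 1.59 ± 0.18, adjusted p = 3.31e-06), and Flcn had 14.2 and 9.79 CPM in DMSO and 46, 33.6 and 36.6 CPM with Torin1 (log2FC 1.52 ± 0.27, adjusted p = 0.000635). Rictor, the defining subunit of mTORC2, had 35.5 and 19.6 CPM in DMSO and 57.6, 56 and 52.1 CPM with Torin1 (log2FC 0.81 ± 0.22, adjusted p = 0.0187). Its call was lost without Torin1 replicate 2 or Torin1 replicate 3 (adjusted p 0.00115 to 0.0731 over the alternatives).

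ATF4 is a transcription factor that mTORC1 and the integrated stress response both sustain, and its targets import and make amino acids. Of 34 tested mRNAs of the ATF4 and stress list, 14 fell and 1 rose (median -0.53), and 11 to 17 fell in the fits without 1 library. Atf4 itself (chromosome 15, 80255184 to 80257541, plus strand) had 434 and 434 CPM in DMSO and 136, 124 and 117 CPM with Torin1 (log2FC -1.79 ± 0.14, adjusted p = 3.1e-08). Chac1 (chromosome 2, 119351229 to 119354381, plus strand), which breaks down glutathione, had 132 and 165 CPM in DMSO and 35, 35.9 and 17.8 CPM with Torin1 (log2FC -2.29 ± 0.22, adjusted p = 5.38e-07). Trib3, a pseudokinase, had 109 and 81.5 CPM in DMSO and 24.1, 28.4 and 30.3 CPM with Torin1 (log2FC -1.84 ± 0.20, adjusted p = 1.6e-06). Sesn2, a leucine sensor upstream of mTORC1, changed by -2.29 (adjusted p = 2.29e-05). Slc7a5 (chromosome 8, 121881150 to 121907694, minus strand), the light chain of the transporter LAT1 that brings in leucine, had 1465 and 1148 CPM in DMSO and 439.9, 451 and 509 CPM with Torin1 (log2FC -1.49 ± 0.14, adjusted p = 4.96e-07). Asns, asparagine synthetase, had 1440 and 1310 CPM in DMSO and 1212, 1328 and 1302 CPM with Torin1 (log2FC -0.10 ± 0.13, adjusted p = 0.653), and Ddit3, which encodes CHOP, had 27.1 and 34.2 CPM in DMSO and 26.3, 22.4 and 14.3 CPM with Torin1 (log2FC -0.48 ± 0.28, adjusted p = 0.267). Xpot, the exportin for tRNA, was the one that rose, with 346 and 344 CPM in DMSO and 469, 487 and 439 CPM with Torin1 (log2FC 0.43 ± 0.14, adjusted p = 0.0439). It was not called without DMSO replicate 1 or without any 1 of the Torin1 libraries (adjusted p 0.00348 to 0.205 over the alternatives).

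The aminoacyl-tRNA synthetases, many of which are ATF4 targets in other settings, showed 3 decreases and 1 increase among 21 (median 0.03, with 2 lower and 5 higher without scaling). These counts are near the shares over all tested transcripts, 9.93% lower and 5.69% higher. Qars, for glutamine, had 106 and 97.9 CPM in DMSO and 29.9, 22.9 and 32.6 CPM with Torin1 (log2FC -1.87 ± 0.19, adjusted p = 1.11e-06), and Vars, for valine, had 425 and 558 CPM in DMSO and 196, 200.5 and 228 CPM with Torin1 (log2FC -1.22 ± 0.15, adjusted p = 1.29e-05). Kars, for lysine, changed by -0.56 and lost its call without Torin1 replicate 2 or 3 and with no scaling. Rars, for arginine, had 334 and 389.8 CPM in DMSO and 471, 476 and 506 CPM with Torin1 (log2FC 0.43 ± 0.14, adjusted p = 0.0468), lost without DMSO replicate 1 or any 1 of the Torin1 libraries (adjusted p 0.00385 to 0.298 over the alternatives). In the list of SREBP and sterol synthesis, whose transcription mTORC1 promotes, 6 of 34 fell, beside 9.93% of all tested transcripts, and 0 rose (2 unadjusted). The median was -0.17, and 0.04 with no scaling, where 5 fell and 3 rose. There were 4 decreases without DMSO replicate 1 or Torin1 replicate 3. Fasn, the fatty acid synthase, had 847 and 988 CPM in DMSO and 446, 468 and 532 CPM with Torin1 (log2FC -0.92 ± 0.14, adjusted p = 0.000131), and Srebf2, the transcription factor itself, changed by -0.79.

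Immediate early genes, which growth signals switch on within minutes, made up the clearest group of increases. Of 25 tested, 13 rose and 1 fell (median 1.27), and 8 to 13 rose in the fits without 1 library, 8 of them without DMSO replicate 1. Egr1, a zinc finger transcription factor, had 22.7 and 24.5 CPM in DMSO and 232, 210.3 and 208 CPM with Torin1 (log2FC 3.23 ± 0.19, adjusted p = 1.07e-09). Egr2, its relative, had 0 and 0 footprints in DMSO and 12, 23 and 15 with Torin1, at least 3.33-fold higher with Torin1 against a floor of 3 counts in each DMSO library. The rule that named Egr1 and Egr2 as largest increases took only called transcripts whose groups do not overlap, so their separation adds no support. Junb, a subunit of AP-1, had 84.3 and 140.3 CPM in DMSO and 332, 353 and 374 CPM with Torin1 (log2FC 1.76 ± 0.19, adjusted p = 2.19e-06). Phosphatases that switch off MAP kinases rose too. Dusp6 had 108 and 79.9 CPM in DMSO and 332, 335 and 356 CPM with Torin1 (log2FC 1.79 ± 0.16, adjusted p = 2.45e-07), and Dusp4 had 85.8 and 122 CPM in DMSO and 289, 304 and 288 CPM with Torin1 (log2FC 1.58 ± 0.17, adjusted p = 2.17e-06). Fos, another subunit of AP-1, had 14 and 4 footprints in DMSO and 15, 49 and 23 with Torin1 (log2FC 2.03 ± 0.46, adjusted p = 0.00501), a call lost without DMSO replicate 1 or Torin1 replicate 2. The member that fell was Atf3, which is also a target of ATF4, with 48 and 4 footprints in DMSO and 4, 12 and 6 with Torin1 (log2FC -1.32 ± 0.43, adjusted p = 0.0471). It lost its call without DMSO replicate 1, without any 1 of the Torin1 libraries, with no scaling and with the replicate number as a block. Its log2FC was -1.68 to -0.644 over the alternatives.

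FoxO targets and insulin feedback genes went the same way as far as they were called. Of 14 tested, 4 rose and 0 fell (0 also unadjusted, median 0.46), with 3 to 5 increases in the fits without 1 library and 7 with no scaling, and 12 of the 14 estimates were positive. Txnip (chromosome 3, 96557960 to 96561857, plus strand), which restrains glucose uptake, had 23.2 and 17.9 CPM in DMSO and 87.5, 87.7 and 96.8 CPM with Torin1 (log2FC 2.04 ± 0.20, adjusted p = 7.03e-07). Irs2, the adaptor of the insulin receptor, had 118 and 142 CPM in DMSO and 268, 286 and 315 CPM with Torin1 (log2FC 1.19 ± 0.16, adjusted p = 2.6e-05). Pik3ip1, an inhibitor of PI3 kinase, had 10.9 and 11.4 CPM in DMSO and 27.7, 31.2 and 31.5 CPM with Torin1 (log2FC 1.46 ± 0.27, adjusted p = 0.00113), and was not called without DMSO replicate 1. Ccng2, a cyclin linked to cell cycle arrest, had 36 and 0 footprints in DMSO and 28, 66 and 57 with Torin1 (log2FC 1.98 ± 0.40, adjusted p = 0.00208), and was not called by DESeq2. Foxo3 had 24.2 and 27.7 CPM in DMSO and 36.5, 36.8 and 47.5 CPM with Torin1 (log2FC 0.69 ± 0.23, adjusted p = 0.0535), and Cdkn1b, the cell cycle inhibitor p27, had 86.2 and 101 CPM in DMSO and 109, 107 and 128 CPM with Torin1 (log2FC 0.33 ± 0.17, adjusted p = 0.198), so neither passed. Insr, the insulin receptor, had 80.9 and 93 CPM in DMSO and 78.8, 108 and 91.6 CPM with Torin1, with overlap between the groups.

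**Figure D3:**
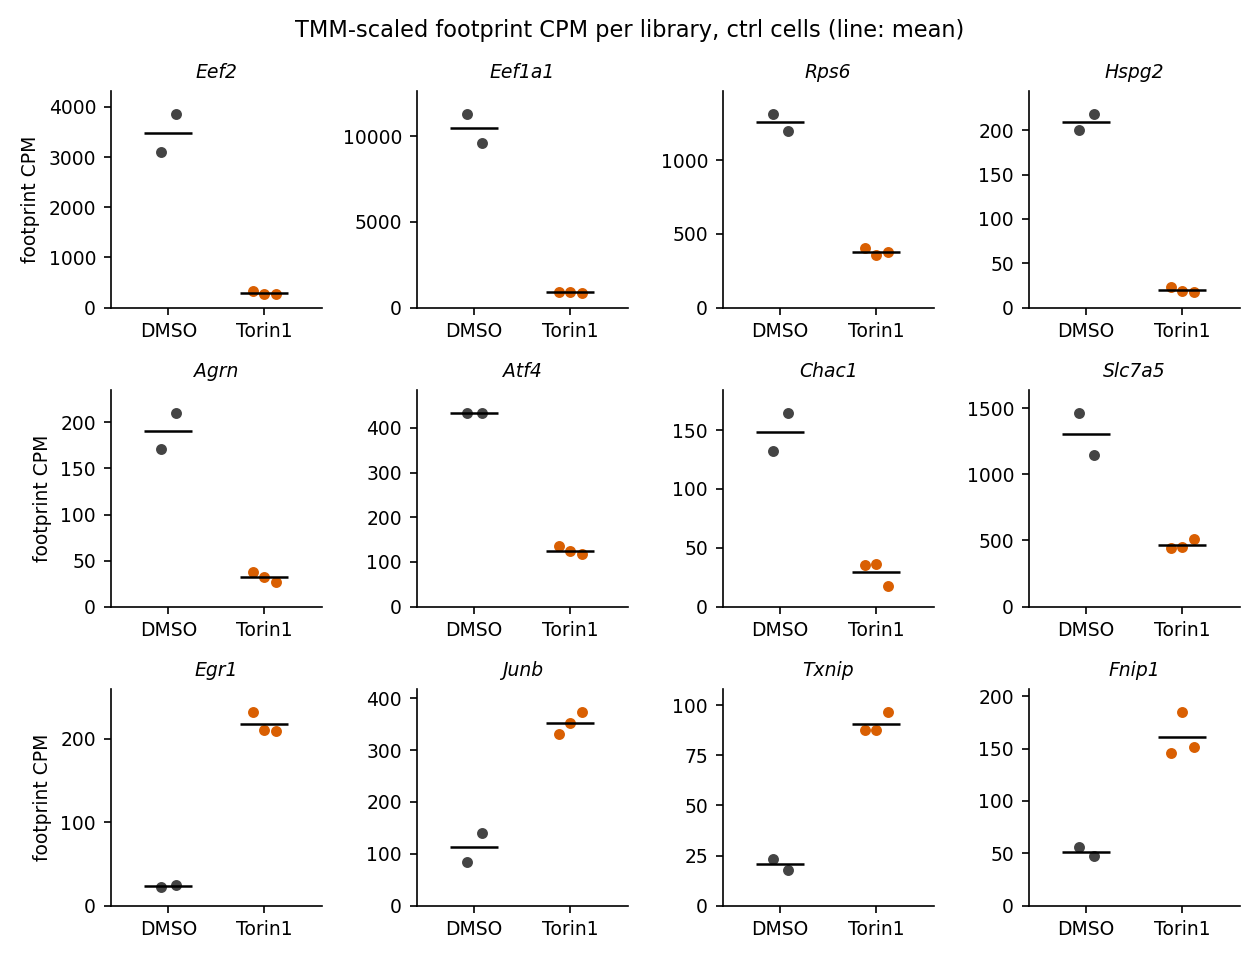
Footprint level (y axis, TMM-scaled CPM, linear scale, each gene with its own axis) of 12 named genes in the 2 DMSO and 3 Torin1 ctrl libraries, each dot a library and each line the mean of a condition. Eef2, Eef1a1, Rps6, Hspg2, Agrn, Atf4, Chac1 and Slc7a5 are lower with Torin1 while Egr1, Junb, Txnip and Fnip1 are higher. The genes were picked with their values known, so the lack of overlap between their DMSO and Torin1 dots adds no support. Of all tested transcripts, 42.9% had groups without overlap.

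Other large increases lay outside these lists. The rule that named them took only called transcripts whose groups do not overlap, so their separation adds no support. Crebrf, a regulator that represses the stress factor CREB3, had 4 and 1 footprints in DMSO and 18, 34 and 26 with Torin1, a ratio of pooled, depth-scaled counts of 14.1 (exact 95% interval 5.79 to 44.6). Klhl24, an adaptor of a ubiquitin ligase, had 24.6 and 19.6 CPM in DMSO and 114, 112 and 109 CPM with Torin1 (log2FC 2.25 ± 0.19, adjusted p = 1e-07). Arid5b, a chromatin regulator, had 3.87 and 6.52 CPM in DMSO and 19.7, 23.3 and 18.3 CPM with Torin1 (log2FC 2.24 ± 0.38, adjusted p = 0.000361), not called without DMSO replicate 1 (adjusted p 4.61e-06 to 0.133 over the alternatives). Il6, the cytokine interleukin 6, had 10.2 and 6.52 CPM in DMSO and 40.9, 52.7 and 35.5 CPM with Torin1 (log2FC 2.19 ± 0.29, adjusted p = 2.51e-05). Rasgef1a had 6 and 0 footprints in DMSO and 9, 19 and 15 with Torin1 (ratio 6.47, interval 2.74 to 18.6) and lost its call without DMSO replicate 1. Rsl1 had 6 and 0 footprints in DMSO and 13, 10 and 8 with Torin1 (ratio 4.67, interval 1.92 to 13.7) and lost it without DMSO replicate 1, Torin1 replicate 1 or Torin1 replicate 3.

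Among mRNAs of autophagy, which mTORC1 holds back, 7 of 39 rose and 1 fell (median 0.21), beside 5.69% and 9.93% of all tested transcripts. Without DMSO replicate 1 there was 1 increase, without Torin1 replicate 2 there were 4 and without Torin1 replicate 3 there were 3. DESeq2 called 3 and the fit with no scaling 11. Nbr1, a cargo receptor, had 60.9 and 84.8 CPM in DMSO and 114, 168 and 143 CPM with Torin1 (log2FC 1.06 ± 0.20, adjusted p = 0.00106), Gabarapl1, which is coupled to the autophagosome membrane, had 32.1 and 14.7 CPM in DMSO and 68.6, 64.3 and 55 CPM with Torin1 (log2FC 1.16 ± 0.24, adjusted p = 0.00233), and Rb1cc1, a subunit of the ULK1 complex, had 47.8 and 47.3 CPM in DMSO and 88.3, 88.6 and 80.7 CPM with Torin1 (log2FC 0.85 ± 0.18, adjusted p = 0.00274). The calls of Nbr1 and Rb1cc1 were lost without DMSO replicate 1. Atg4d, a processing protease, fell with 51 and 10 footprints in DMSO and 7, 15 and 8 with Torin1 (log2FC -1.22 ± 0.38, adjusted p = 0.0364), a call that each fit without 1 library lost (adjusted p 0.0111 to 0.161 over the alternatives). In mitosis and the spindle checkpoint, 9 of 35 rose and 0 fell (2 unadjusted, median 0.34), with 2 increases without DMSO replicate 1 or Torin1 replicate 3, 3 without Torin1 replicate 2, and 17 without DMSO replicate 3, where 2 fell. There were also 17 with no scaling. Over all tested transcripts, 5.69% rose. Nuf2, a kinetochore subunit, had 152 and 114 CPM in DMSO and 221, 262 and 238 CPM with Torin1 (log2FC 0.81 ± 0.16, adjusted p = 0.00192), and its partner Spc25 had 37.7 and 44 CPM in DMSO and 72.2, 71.3 and 72.1 CPM with Torin1 (log2FC 0.87 ± 0.19, adjusted p = 0.00373), lost without DMSO replicate 1.

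In nucleolar ribosome biogenesis, 7 of 44 fell and 3 rose (median 0.09), beside 9.93% and 5.69% of all tested transcripts. The counts were 1 and 11 with no scaling. There was 1 decrease without Torin1 replicate 2, there were 2 without Torin1 replicate 3 and 4 without Torin1 replicate 1 or in DESeq2. Increases numbered 1 without DMSO replicate 1, Torin1 replicate 2 or Torin1 replicate 3, and 6 without DMSO replicate 3. Polr1c, a subunit shared by RNA polymerases I and III, had 169.8 and 197 CPM in DMSO and 83.9, 72.3 and 82.4 CPM with Torin1 (log2FC -1.19 ± 0.16, adjusted p = 2.29e-05), while Gnl3, the GTPase nucleostemin, rose with 124 and 121 CPM in DMSO and 210.1, 208 and 232 CPM with Torin1 (log2FC 0.82 ± 0.15, adjusted p = 0.000842). The mRNAs often described as sensitive to eIF4E split as well, with 4 lower and 3 higher of 16 (median -0.08, and 0.14 with no scaling). Without DMSO replicate 1 the counts were 2 and 1, without Torin1 replicate 2 they were 2 and 2, without Torin1 replicate 3 and in DESeq2 they were 3 and 1. Odc1, the first enzyme of polyamine synthesis, had 187 and 150.1 CPM in DMSO and 81, 74.1 and 59.5 CPM with Torin1 (log2FC -1.28 ± 0.17, adjusted p = 2.51e-05), and Ccnd1, cyclin D1, had 255 and 225 CPM in DMSO and 132, 165 and 163 CPM with Torin1 (log2FC -0.66 ± 0.15, adjusted p = 0.00556), lost without DMSO replicate 1. Mcl1, which protects from apoptosis, had 128 and 139 CPM in DMSO and 96.3, 81.1 and 105 CPM with Torin1 (log2FC -0.49 ± 0.16, adjusted p = 0.0477), a call that 9 of 14 alternatives lost (adjusted p 0.0194 to 0.236 over the alternatives). Mycn, the oncogene of neuroblastoma, rose with 29.7 and 22.8 CPM in DMSO and 64.9, 80.2 and 87 CPM with Torin1 (log2FC 1.47 ± 0.21, adjusted p = 6.17e-05).

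Of the neuroblastoma markers, 4 of 14 fell, and Mycn was the one that rose. Besides Tubb3, these were Dbh, which makes noradrenaline, with 109 and 91.3 CPM in DMSO and 50.3, 68.1 and 67 CPM with Torin1 (log2FC -0.72 ± 0.18, adjusted p = 0.00913), the neuronal stathmin Stmn2, at -0.55, and the granule protein Chga, at -0.68. Dbh lost its call without DMSO replicate 1, Stmn2 without Torin1 replicate 2 and with no scaling, and Chga without DMSO replicate 3, without Torin1 replicate 2 and with no scaling. Chgb, the marker with the most footprints, had 2548 and 4694 CPM in DMSO and 2836, 2612 and 3254 CPM with Torin1, with overlap between the groups.

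A group of increases was noticed in the table itself, so it is described without a test. Of 312 tested transcripts whose symbol is Zfp and a number, mostly zinc finger proteins, 32 rose and 0 fell (73 and 2 at an unadjusted p under 0.05, median 0.43), and 255 estimates were positive. The count of increases was 3 without DMSO replicate 1, 11 without Torin1 replicate 2, 9 without Torin1 replicate 3, 7 in DESeq2 and 66 with no scaling. Zfp608 had 22.9 and 35.9 CPM in DMSO and 67.8, 61.1 and 68.1 CPM with Torin1 (log2FC 1.33 ± 0.22, adjusted p = 0.000338), Zfp655 had 43 and 42.4 CPM in DMSO and 99.2, 88.1 and 83 CPM with Torin1 (log2FC 1.07 ± 0.18, adjusted p = 0.000425) and Zfp799 had 20 and 3 footprints in DMSO and 20, 53 and 29 with Torin1 (log2FC 1.96 ± 0.39, adjusted p = 0.00179). Many of these genes are near copies with few footprints, and reads may be split between them.

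**Figure D4:**
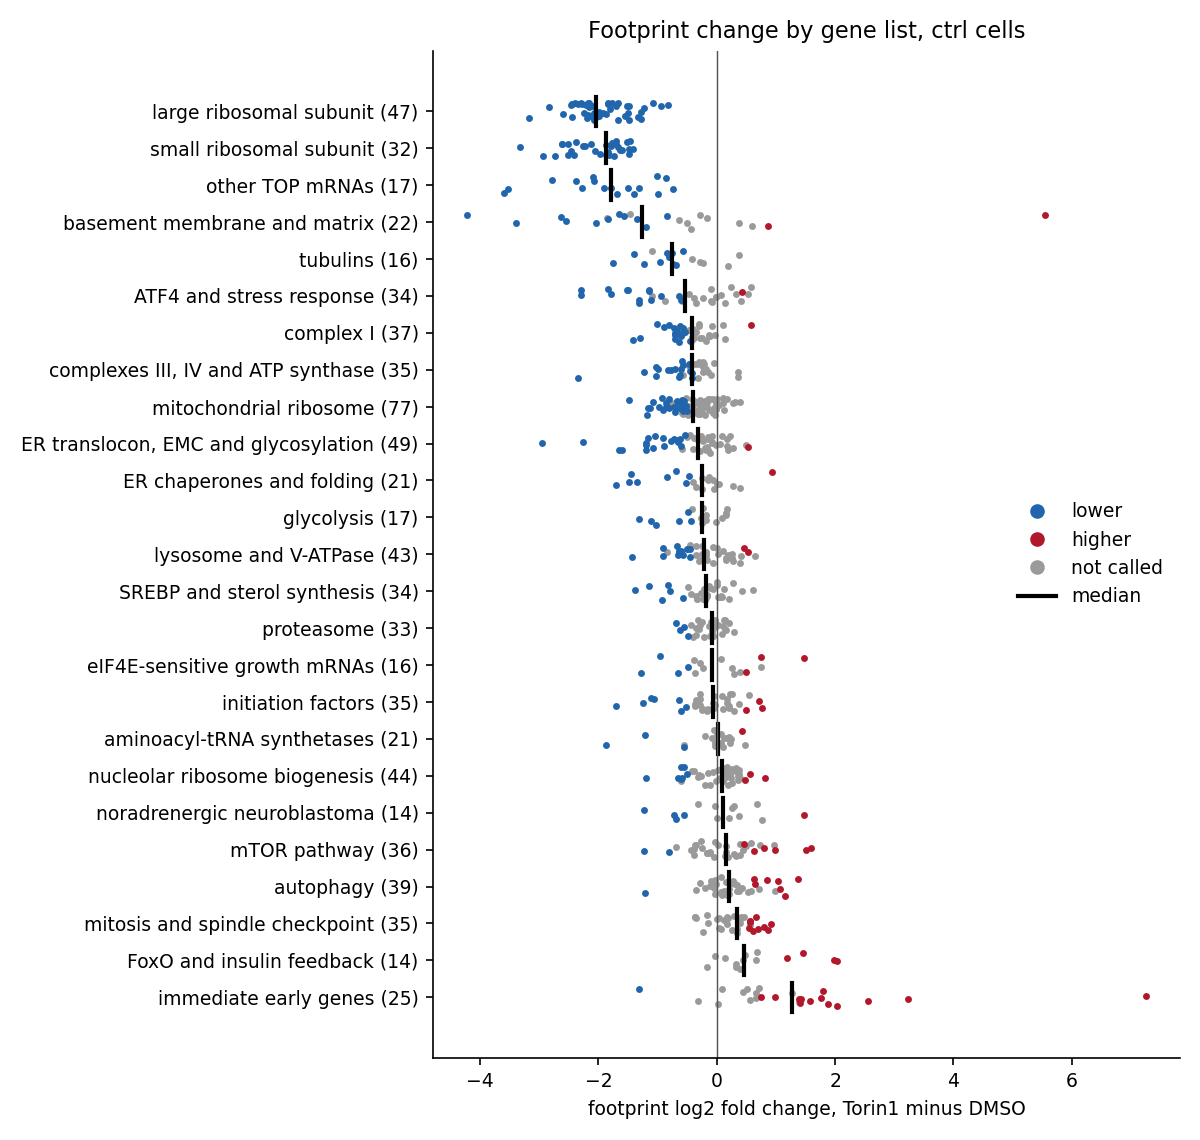
Change of footprints in ctrl cells (x axis, log2FC, Torin1 minus DMSO) for the tested members of each gene list (y axis), each dot a transcript and each bar the median of the list. The 3 TOP lists have medians of -1.87, -2.04 and -1.79, and the immediate early genes a median of 1.27.

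The RNA-seq of the same cells shows which footprint changes came with a change of the mRNA level. RNA-seq called 299 of 10958 transcripts (2.73%), 74 lower (0.675%) and 225 higher (2.05%). Its counts depended on single libraries, with 114 called without Torin1 replicate 2 of the RNA-seq and 1465 without DMSO replicate 3 of the RNA-seq. Translation efficiency (TE) is the change of footprints beyond that of the mRNA, tested as the interaction of assay and treatment. It was called for 488 of 10433 (4.68%), 448 lower (4.29%) and 40 higher (0.383%), with 316 called without ribo-seq DMSO replicate 1 and 820 without RNA-seq DMSO replicate 2. Of the transcripts whose footprints fell, 37 were lower, 1013 not called and 2 higher in RNA-seq. Of those whose footprints rose, 101 were higher, 497 not called and 0 lower. Across 10432 transcripts r between both log2FC was 0.499, a description in which transcripts share the libraries.

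For the TOP mRNAs, the decrease was mostly in TE. RNA-seq called 1 of the 96 lower (Rpl27, -0.46), with a median mRNA change of -0.27. At an unadjusted p under 0.05 (edgeR), RNA-seq had 10 of the small subunit, 16 of the large subunit and 0 of the other TOP mRNAs lower, and 0, 0 and 1 higher. TE was lower for 93 (median -1.70). The 3 not called in TE were Eif3e, Rpl21 and Rpl38. Eef2 mRNA changed by 0.02 (adjusted p = 0.944) and its TE by -3.61 (adjusted p = 2.87e-10). For Eef1a1 these values were -0.12 (adjusted p = 0.612) and -3.41 (adjusted p = 2.87e-10). In the matrix list, drawn up after the values were seen, TE was lower for 11 of 20. Hspg2 mRNA changed by -0.73 (adjusted p = 0.104) and TE by -2.67 (adjusted p = 2.07e-05), and for Agrn the values were -0.30 (adjusted p = 0.29) and -2.25 (adjusted p = 8.02e-06). Slc25a30 stands out since its mRNA rose by 0.72 (adjusted p = 0.0497) while TE changed by -3.75 (adjusted p = 2.14e-06). Lama5 showed the same pair of directions, with 0.70 (adjusted p = 0.0455) in mRNA and -2.04 (adjusted p = 0.000776) in TE.

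Smaller shares of the other lists were called in TE, beside lower TE in 4.29% of all tested transcripts. Lower TE was found for 12 of 49 mRNAs of the ER translocon, EMC and glycosylation list, 4 of 21 ER chaperones, 4 of 43 in the lysosome list, 3 of 17 in glycolysis, 3 of 35 in complexes III, IV and ATP synthase, 3 of 77 of the mitochondrial ribosome and 2 of 37 of complex I, the last 2 lists being near the share over all transcripts. Median TE changes were -0.11 for complex I, -0.14 for complexes III, IV and ATP synthase and -0.13 for the mitochondrial ribosome. Atp5g2 had a TE change of -1.99 (adjusted p = 2.28e-05) with an mRNA change of -0.35 (adjusted p = 0.168). Eif4a2 changed in TE by -1.70 (adjusted p = 7.82e-06), with an mRNA change of 0.46 (adjusted p = 0.0599). In mitosis TE was higher for 3 of 35, among them Spc25 at 0.96 (adjusted p = 0.0236), and RNA-seq called 0 mRNAs of that list (4 lower and 3 higher unadjusted). Gnl3 was also higher in TE, at 0.74 (adjusted p = 0.0237), with an mRNA change of 0.08 (adjusted p = 0.688).

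**Figure D5:**
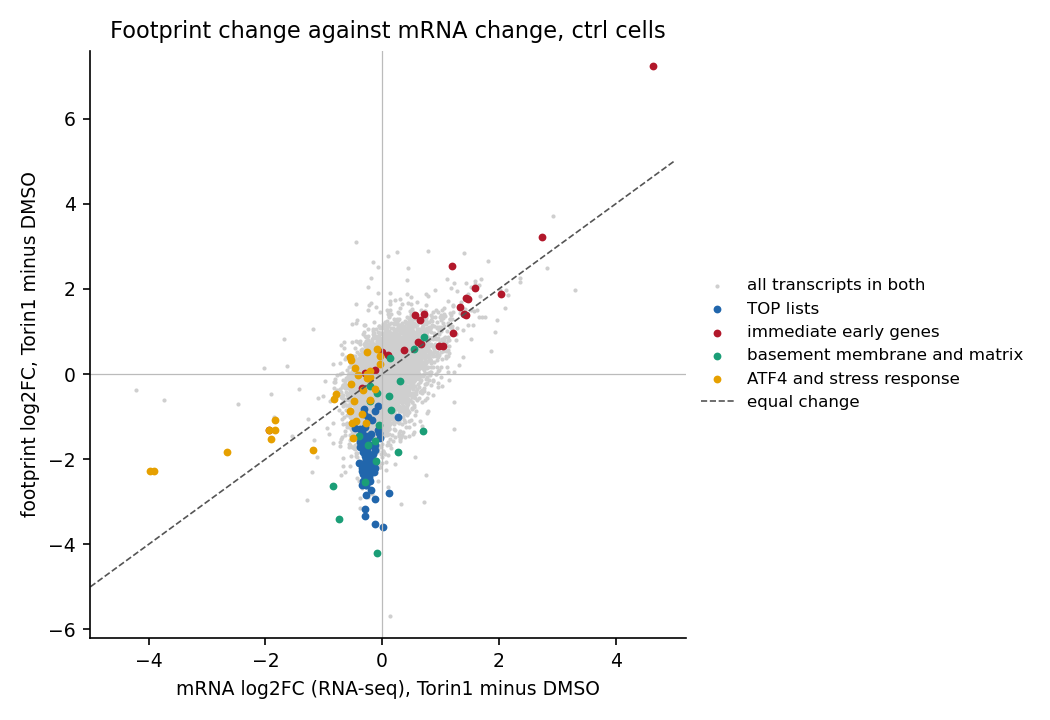
Change of footprints (y axis, log2FC, Torin1 minus DMSO) against change of mRNA (x axis, log2FC, Torin1 minus DMSO) in ctrl cells, each point a transcript, with the dashed line where both are equal. The TOP mRNAs lie below the line with a median mRNA change of -0.27, and Chac1 lies above it, with -3.99 in mRNA and -2.29 in footprints.

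The ATF4 list and the increases showed another pattern. In the ATF4 list RNA-seq called 12 of 34 lower, and TE was lower for 2 and higher for 3. Chac1 mRNA changed by -3.99 (adjusted p = 2.63e-08), more than its footprints, and TE rose by 1.69 (adjusted p = 0.00048). Sesn2 mRNA changed by -3.91 (adjusted p = 2.54e-07) and TE by 1.61 (adjusted p = 0.00691). Trib3 had an mRNA change of -2.65 (adjusted p = 4.53e-07) with a TE change of 0.82 (adjusted p = 0.0504). Slc7a5 differed, with -0.50 (adjusted p = 0.0564) in mRNA and -0.99 (adjusted p = 0.00231) in TE. Of the immediate early genes 16 of 25 were higher in RNA-seq, and 0 of 25 were called in TE by edgeR (1 at an unadjusted p under 0.05). Egr1 mRNA rose by 2.74 (adjusted p = 4.53e-07) and Junb mRNA by 1.47 (adjusted p = 9.37e-06). In the FoxO list 5 of 14 were higher in RNA-seq and 0 called in TE (0 also unadjusted), with Txnip mRNA at 1.52 (adjusted p = 0.000133). Of the Zfp symbols, RNA-seq called 20 higher. A TE that is not called does not show that footprints and mRNA changed alike.

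The transcripts that fell were shorter than those that rose in each part of the mRNA. With GENCODE lengths on GRCm38, the median 5′ leader was 121 nt for 1059 that fell, 243.5 nt for 608 that rose and 175 nt for 8975 not called. The median CDS was 1089 nt, 1944 nt and 1386 nt, and the median 3′ UTR 654 nt, 1272 nt and 1042 nt, in the same order. Without the TOP lists the decreasing transcripts had medians of 123 nt, 1167 nt and 726 nt. They also had more footprints to begin with, with a median of 99.1 CPM in DMSO against 49.8 CPM for those that rose and 27.5 CPM for those not called, and the part of that level in the lengths was not tested. A TOP start in the GENCODE annotation, a C followed by at least 4 pyrimidines, was carried by 45 of the 1059 that fell (4.25%), 12 of the 608 that rose (1.97%) and 241 of all 10642 (2.27%). Outside the TOP lists, 34 of 230 transcripts with such a start fell (14.8%) and 929 of 10316 without it (9.01%).

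The KO cells, which share no library with the ctrl comparison, give a second view of the same drug. In them 2391 of 10822 transcripts were lower (22.1%) and 1999 higher (18.5%), or 40.6% in all, with 3 libraries in each condition. Of the transcripts that fell in ctrl, 1005 fell in KO, 55 were not called and 0 rose. Of those that rose in ctrl, 518 rose in KO, 87 were not called and 0 fell. Across 10555 transcripts r between both log2FC was 0.791. All 96 TOP mRNAs fell in KO as well, with a median of -2.07, and Eef2 changed by -3.68, Eef1a1 by -3.61 and Hspg2 by -4.40. Egr1 changed by 3.87 in KO, Txnip by 2.63 and Chac1 by -1.38. Of complex I mRNAs 31 of 37 were lower in KO, and of the Zfp symbols 110 were higher.

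The difference between both responses was tested itself, as the interaction of genotype and treatment. It was called for 12 of 10662 transcripts (0.113%), in each of them as a more negative response in KO, and 731 had an unadjusted p under 0.05. The 12 hold 0 of the 96 TOP mRNAs by edgeR's quasi-likelihood test, of which 2 were lower and 1 higher at an unadjusted p under 0.05, all in the large subunit. Slc7a5 was, with -1.49 in ctrl and -2.61 in KO, and so were Nomo1, at -1.61 in ctrl and -2.75 in KO, and Fbln2, at -1.66 and -2.91. Without KO Torin1 replicate 1 no transcript was called, with 637 at an unadjusted p under 0.05, and without ctrl DMSO replicate 1 there were 50.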

How the data were processed

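N2a footprints were measured by ribo-seq in ctrl cells, and beside them RNA-seq of ctrl and ribo-seq of KO cells. The authors trimmed adaptors with cutadapt, mapped reads to mm10 with HISAT2 and to canonical Ensembl transcripts with bowtie2, removed reads on rRNA, tRNA and pseudogenes, placed P-sites with riboWaltz and deposited counts per CDS without normalization (for RNA-seq, counts of reads overlapping the CDS). The authors' own edgeR columns in these tables (log2 fold change, log2 CPM, p-value, FDR) were not used. From the counts, transcripts with over 1 CPM in all libraries of at least 1 condition were fitted with edgeR 4.0.16 in R 4.3.3 (limma 3.58.1), with TMM, a quasi-likelihood F-test, Benjamini-Hochberg adjustment over all transcripts tested and a threshold of 0.05. The SE is the log2FC divided by the root of F. TE was the interaction of assay and treatment, scaled within each assay. Library totals were 669392 to 4529186 footprints, and intervals and floors cover counting error only.

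The members and lists were chosen with earlier results of these data known. Named were the 8 largest decreases and 8 largest increases among transcripts called (mean of at least 10 counts in the higher group, no overlap), up to 4 called members per list and direction with the smallest adjusted p, all members of lists with up to 16 tested, and fixed anchors. Matrix, tubulin and ER translocon genes and Zfp symbols were chosen after their values were seen, as were Rpl38, Rpl21, Naca, Eif3e and Rpl27 from the ends of the TOP lists. A few genes that this rule names are not reported here. Of 27 fixed lists, 23 had a tested member. The lists of mitochondrially encoded mRNAs and of macrophage, astrocyte and epithelial markers had none. GENCODE lengths and starts matched 12474 of the 12519 transcripts of the 3 tables, and RefSeq starts 8536 of 10683 tested genes.

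Per the labels, replicates differ in cell passage, which does not say that DMSO and Torin1 libraries of 1 number came from the same passage. The values cannot settle it for the ctrl ribo-seq, since the deviations of 2 DMSO libraries from their mean mirror each other. A fit with the replicate number as a block was run as an alternative, as were no scaling, RLE, 2 other filters, edgeR's exact test, DESeq2 1.42.0, scaling without the TOP lists, a fit of all 4 conditions and leaving out each library. The fits were tested on simulated data first. Python 3.11.15, numpy 2.4.6, pandas 2.3.3 and matplotlib 3.10.9 were used for annotation and figures.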

Additional observations from a re-analysis of the deposited data

Results flagged for a closer look

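The response of 12 transcripts to Torin1 differed between KO and ctrl cells by the interaction term of edgeR's quasi-likelihood test, each with a more negative response in KO. These groups hold 2 or 3 libraries, and the ctrl side rests on 2 DMSO libraries of unequal depth. The difference, KO minus ctrl, was largest for Tapbp, which loads peptides onto MHC class I, at -1.35 (-0.82 in ctrl, -2.19 in KO, adjusted p = 0.0079). H2-D1, an MHC class I heavy chain, differed by -0.88 (-0.20 and -1.10). Of proteins at or in the ER, Nomo1 differed by -1.12 (adjusted p = 0.00568), Emc1 by -1.22 (0.0126), Ganab, a glucosidase, by -0.97 (-0.28 and -1.27) and Hyou1, a chaperone, by -0.93 (-0.68 and -1.63). Among secreted proteins, Fbln2 differed by -1.23 and Loxl2, which crosslinks collagen, by -1.26 (0.01 and -1.27, adjusted p = 0.00568). Slc7a5 differed by -1.10, Srebf2 by -1.08 (-0.79 and -1.90), Gdpd1 by -1.25 (-0.34 and -1.61) and the mRNA-binding protein Ybx1 by -0.89 (-0.56 and -1.47, adjusted p = 0.0362). No transcript was called without KO Torin1 replicate 1.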

How the results depend on the processing

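Counts of calls depended on the libraries and the scaling, while no named gene that was called turned its sign in any alternative run for it. Some that were not called did, Asns, Chgb and Insr among them. For ctrl footprints, no scaling gave 684 lower and 1691 higher. DESeq2 called 956 (648 lower, 308 higher), and leaving out 1 library gave 725 (without DMSO replicate 1) to 2291 (without DMSO replicate 3), with 558 to 1336 lower and 167 to 955 higher. For ctrl RNA-seq, no scaling gave 46 lower, DESeq2 called 723 (253 lower, 470 higher), and leaving out 1 library gave 114 to 1465, with 20 to 573 lower and 94 to 892 higher. For TE, no scaling gave 183 higher, and leaving out 1 library gave 316 to 820, with 284 to 663 lower and 8 to 157 higher. For KO footprints, no scaling gave 1532 lower and 3766 higher, and leaving out 1 library gave 3527 to 4186. The interaction gave 0 to 50 calls without 1 library, with 0 to 38 lower and 0 to 12 higher. Beyond fewer samples in a fit, the cause of these shifts was not tested.

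The pairing of libraries by replicate number is not shown, and with the replicate block ctrl footprints had 1787 calls, of which 1433 were shared with the fit without the block. RNA-seq had 1328 (350 lower, 978 higher) and the interaction 35 (32 lower, 3 higher). Of 155 named genes, the block lost 3 calls and gained 2, no scaling lost 13 and gained 6, DESeq2 lost 11, and leaving out DMSO replicate 1 lost 39, Torin1 replicate 3 lost 28 and Torin1 replicate 2 lost 26. In DESeq2, 124 other named genes kept their status, and the rest had no adjusted p there. Papln, Igdcc4, Slc25a30, Egr2, Crebrf, Rasgef1a, Arid5b, Rsl1, Fos, Atf3 and Atg4d were among the rest, so DESeq2 neither kept nor lost their calls. Depth limits low mRNAs most, since 3318 tested transcripts had fewer than 10 footprints in DMSO replicate 3.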
